A study of Mus musculus with 6 samples.

Results

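The genes described here encode 39 plasma proteins of the complement and clotting systems that hepatocytes make. They were taken as a fixed list by function, with earlier results of these data known, from the 58601 rows of a liver expression table. All 39 matched exactly 1 Ensembl identifier by gene symbol, and all 39 lay above the minimum mean level of 1 TPM (a transcript abundance corrected for transcript length, scaled so that each library sums to 1000000) that was asked of the 13854 rows tested.

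Complement is a chain of plasma proteases that marks microbes and damaged cells. It can be started by antibodies, by sugar-binding lectins or by slow spontaneous cleavage of C3, and it ends in a pore assembled from the terminal components. Clotting is a related protease chain in which prothrombin is cut to thrombin, thrombin turns fibrinogen into fibrin, and plasmin later dissolves the clot. Hepatocytes secrete most of these proteins, and several of the clotting proteases need vitamin K, whose absorption depends on bile.

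RNA was sequenced from the livers of Mdr2 knockout mice, which lack the transporter that puts phosphatidylcholine into bile and develop cholestatic liver injury. Mice 8 weeks old at the start received either vehicle or lycorine, an alkaloid of Amaryllidaceae plants, for 2 weeks, and each group has 3 libraries. The genotype is written as Mdr2-/- in the sample names and as Mdr2-HKO in the protocol, without saying in which cells the gene was removed. All 6 libraries carry it, no wild-type library was analysed here, and the sources used here do not give the dose, the sex or whether each library is 1 animal. The p-values therefore measure the spread between these libraries only, which may be in part technical. The comparison addresses what lycorine changes in a liver with this injury.

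Hepatocyte markers were abundant in every library, with albumin (Alb) at 16618, 18246 and 5039 TPM with vehicle and at 19785, 19465 and 11824 TPM with lycorine. Like Alb, the markers Ttr, Apoa1, Cyp2e1, Pck1 and Asgr1 were lowest in vehicle 3. The markers Cps1, Ass1 and Hnf4a were lowest in lycorine 3 instead, and Tat in vehicle 1. Vehicle 3 stood apart. Protein-coding nuclear genes held 51.5% of its TPM against 63.7% to 78.1% in the other libraries, and 20 other secreted hepatocyte proteins held 9.05% against 15.4% to 20.2%. The cause was not tested. In bulk tissue, fewer hepatocytes and less RNA per hepatocyte cannot be told apart. Neither can be told from a larger share of TPM outside protein-coding nuclear genes. Depth is unknown, since TPM keeps no record of it.

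The level of the whole set followed the same libraries. Together the 39 genes held 1.34%, 1.26% and 0.910% of TPM with vehicle and 1.40%, 1.35% and 1.21% in lycorine, so that the groups overlapped. Vehicle 3 had the lowest value of all 6 libraries for 26 of the 39 genes. Vehicle 3 had the highest value of all for 4, which were Masp1, Hc, F7 and Pros1. Per 100 TPM of the 20 other secreted proteins, the set held 7.95, 8.16 and 10.1 TPM with vehicle and 7.25, 6.71 and 7.23 TPM in lycorine. On that relative scale all lycorine libraries lay below all vehicle libraries, while in TPM most single genes had a higher mean log2 level in lycorine. The reference is a sum led by Apoa2, Apoc1 and Trf, with means of 39337, 30169 and 23163 TPM. Of its 20 genes 16 were higher in lycorine, and Trf was separated upward, so the scale follows genes that were themselves mostly higher.

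**Figure D1:**
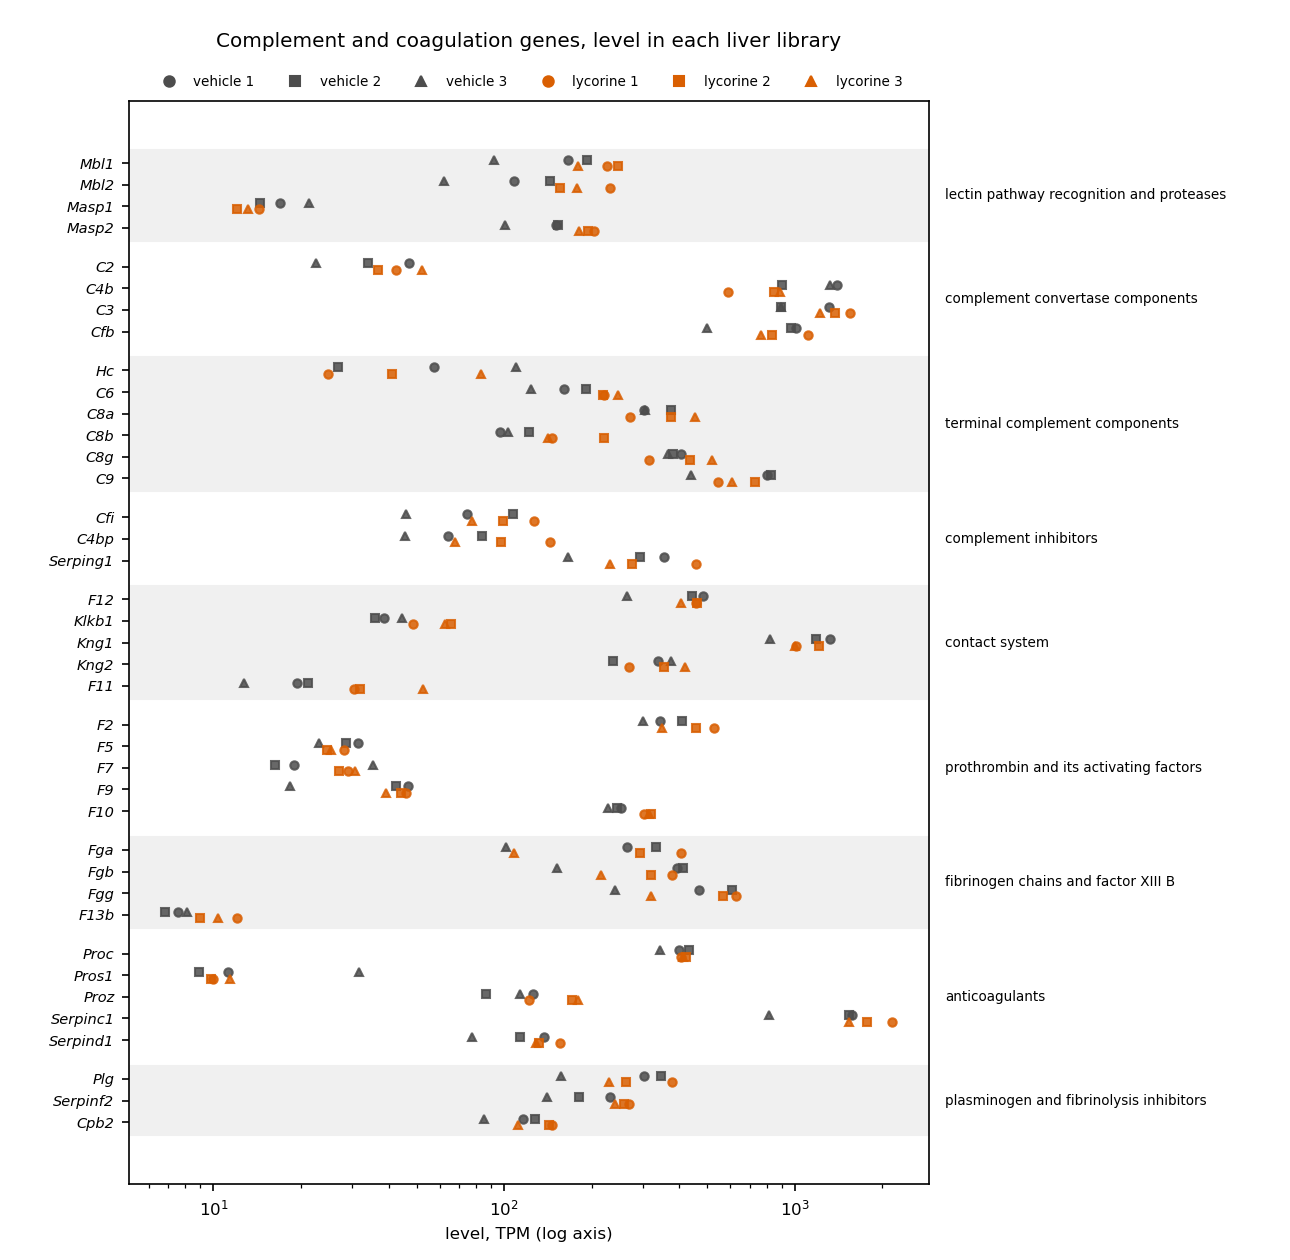
Level of each of the 39 genes in TPM on a log axis, grouped by cascade, with grey points for vehicle and orange points for lycorine and 1 marker shape per library number. Mean levels run from 9.0 TPM for F13b to 1566 TPM for Serpinc1, and the grey triangle of vehicle 3 lies at the left end in 26 genes.

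Mean levels over the 6 libraries spanned from 9.0 TPM for F13b to 1566 TPM for Serpinc1, the gene of antithrombin. After Serpinc1 came C3 at 1206 TPM, Kng1 at 1088 TPM, C4b at 990.3 TPM and Cfb at 865 TPM. At the low end F7, Masp1 and Pros1 had means of 26.2, 15.4 and 13.8 TPM. The mRNA of prothrombin (F2) had a mean of 398 TPM, that of factor XII 419 TPM and that of factor XI 28.0 TPM. Neighbours in this order often differed by less than their spread, as with C8g and Proc, which both had a mean of 403 TPM.

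No gene of the set passed the test of lycorine against vehicle. In limma on log2(TPM + 1) with Benjamini-Hochberg adjustment over all 13854 rows, 0 of the 39 genes had an adjusted p under 0.05, where 0% of all rows did, and their adjusted p values ran from 0.832 to 0.99. At an unadjusted p under 0.05 there were 2 of 39, F11 and Mbl2, both higher in lycorine, against 2.79% of all rows on the higher side and 0.65% on the lower side. The log2 fold change was above 0 in 32 of 39 genes and had a median of 0.33, while 69.9% of all rows were above 0 with a median of 0.22. Against that median 23 of the 39 genes were higher.

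Every lycorine value lay above every vehicle value in 9 genes, or 23.1% of the set, against 9.60% of all rows. The 9 were Mbl2, Masp2, C6, C8b, Klkb1, F11, F10, F13b and Serpinf2. Every lycorine value lay below every vehicle value in 2 genes, C4b and Masp1, or 5.13%, against 1.01% of all rows. Of the rows whose mean reached 5 TPM, 13.8% were separated upward. With median-of-ratios scaling between libraries 0 of the 39 genes were separated upward, against 3.31% of all rows. That scaling centres each library on its median row, so the median of all rows moved from 0.22 to 0.00 largely by construction. Upward separation held for Serpinf2 alone with quantile normalization (4.02% of all rows), for Masp2, F11 and Serpinf2 over protein-coding genes alone (5.01%), and for F11 alone relative to other secreted proteins (1.39%). It was not seen for the other 6 under any of these 4 scalings. Downward separation was seen in 3 genes, C4b, Masp1 and F5, under the first 3 of these scalings, against 3.52%, 2.82% and 1.79% of all rows. Relative to other secreted proteins it was seen in 6, these and C9, F12 and Kng1, against 3.21%.

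**Figure D2:**
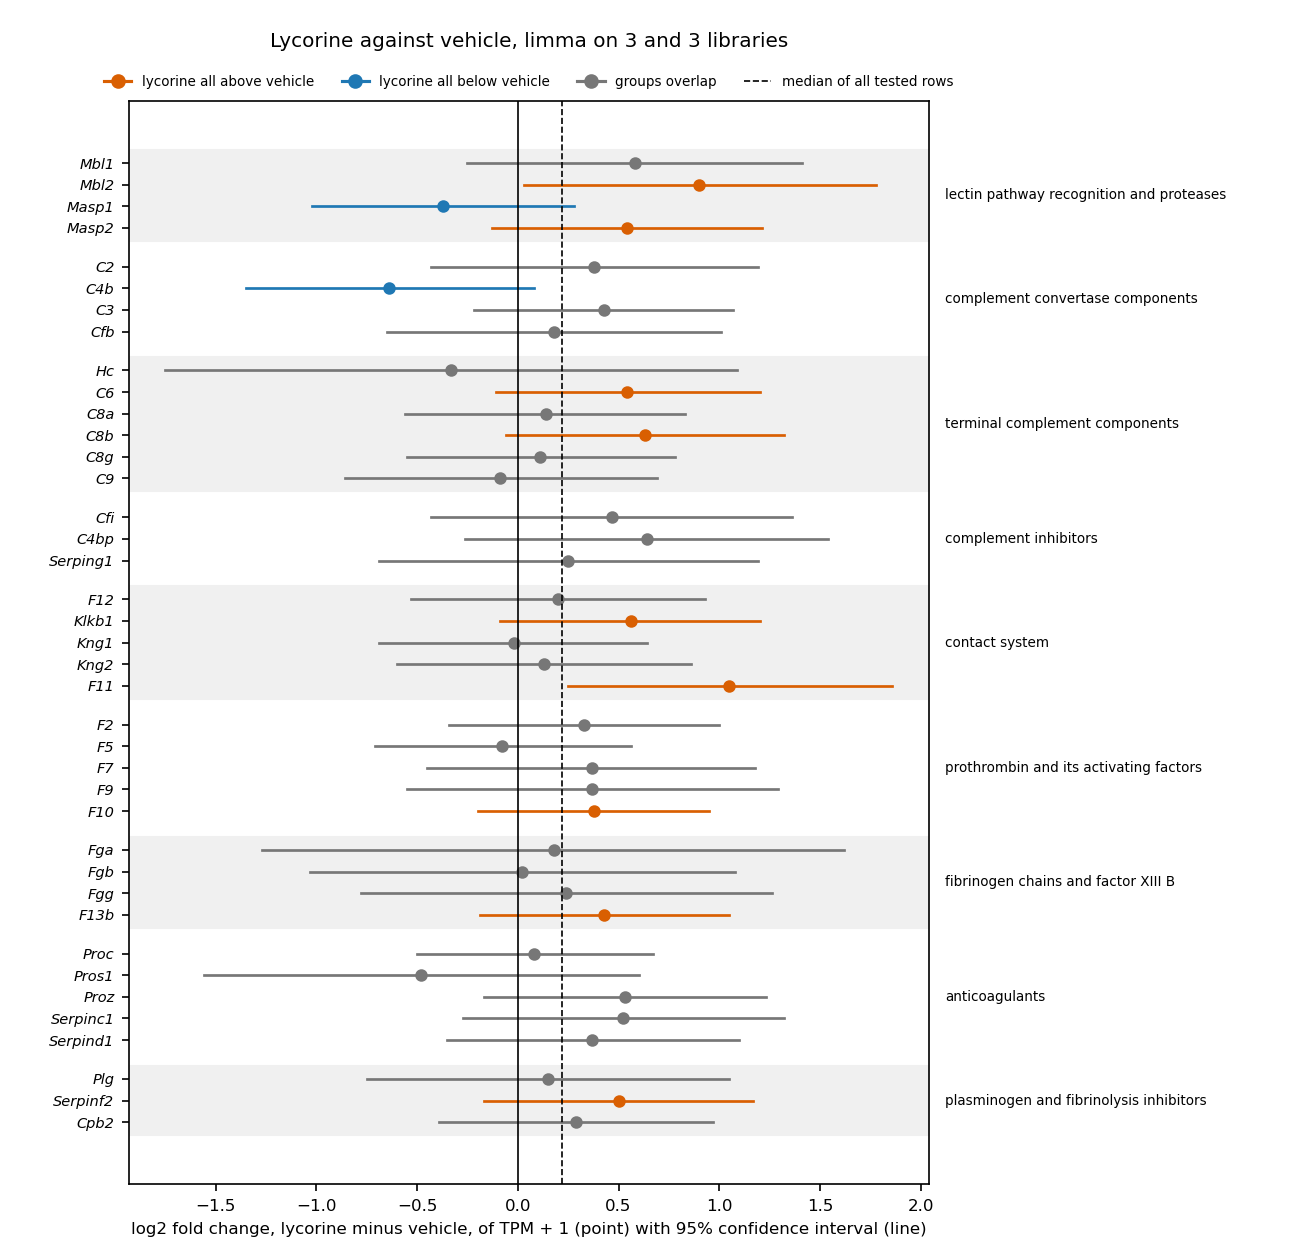
Log2 fold change of lycorine against vehicle for each gene, with its 95% confidence interval from limma (n = 3 libraries each). Orange marks the 9 genes with all lycorine values above vehicle, blue the 2 with all below, and the dashed line is the median of all tested rows at 0.22. The intervals of 37 of 39 genes include 0.

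The promoters of 5 genes are shown because they belong to 2 neighbourhoods in which the genes can be compared as physical neighbours: the fibrinogen chains on chromosome 3, which form 1 protein, and F11 with Klkb1 on chromosome 8, both separated upward. Each window runs from 250 bases before to 50 bases after the start site in RefSeq on GRCm38.p6. Capitals mark matches, on either strand, to the HNF1 motif GTTAAT, the C/EBP core TTGCNNAA, the IL-6 type II element CTGGGAA and the FOXA core TGTTTAC.
Fgg, chr3:83007474-83007773, plus strand: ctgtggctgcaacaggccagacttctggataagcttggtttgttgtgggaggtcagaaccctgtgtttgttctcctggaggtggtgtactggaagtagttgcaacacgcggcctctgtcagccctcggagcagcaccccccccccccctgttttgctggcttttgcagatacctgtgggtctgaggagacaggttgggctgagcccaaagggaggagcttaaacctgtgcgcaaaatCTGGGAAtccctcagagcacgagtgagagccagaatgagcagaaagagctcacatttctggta
Fga, chr3:83025903-83026202, plus strand: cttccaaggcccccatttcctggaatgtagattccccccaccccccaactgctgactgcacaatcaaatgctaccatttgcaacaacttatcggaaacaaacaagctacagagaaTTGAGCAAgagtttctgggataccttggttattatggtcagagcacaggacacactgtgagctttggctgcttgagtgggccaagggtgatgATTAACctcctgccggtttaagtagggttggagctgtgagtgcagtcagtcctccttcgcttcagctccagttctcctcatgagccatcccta
Fgb, chr3:83049814-83050113, minus strand: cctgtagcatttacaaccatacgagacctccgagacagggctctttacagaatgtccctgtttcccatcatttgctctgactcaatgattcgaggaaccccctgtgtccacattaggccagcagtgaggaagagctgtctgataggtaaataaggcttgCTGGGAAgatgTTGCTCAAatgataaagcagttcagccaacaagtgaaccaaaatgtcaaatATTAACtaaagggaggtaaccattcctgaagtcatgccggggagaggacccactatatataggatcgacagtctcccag
F11, chr8:45261982-45262281, minus strand: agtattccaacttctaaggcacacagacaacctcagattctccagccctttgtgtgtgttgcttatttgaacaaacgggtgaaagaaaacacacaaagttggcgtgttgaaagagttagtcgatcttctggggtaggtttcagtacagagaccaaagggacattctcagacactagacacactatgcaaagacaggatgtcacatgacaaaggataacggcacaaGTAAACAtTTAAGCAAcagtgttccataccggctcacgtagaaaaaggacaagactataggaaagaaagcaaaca
Klkb1, chr8:45294786-45295085, minus strand: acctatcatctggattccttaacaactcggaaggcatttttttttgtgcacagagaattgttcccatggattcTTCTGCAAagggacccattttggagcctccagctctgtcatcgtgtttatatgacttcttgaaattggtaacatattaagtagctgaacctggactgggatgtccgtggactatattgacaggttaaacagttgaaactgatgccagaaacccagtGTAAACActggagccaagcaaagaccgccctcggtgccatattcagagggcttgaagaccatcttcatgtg

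Of the 39 genes, 30 had a window in that table. HNF1 and C/EBP are transcription factors of hepatocyte genes, and the IL-6 type II element is known from acute phase genes. The letters GTTAAT or their complement stood in 9 of the 30, or 30.0%, against 8.24% of all 27025 genes with a window. TTGCNNAA stood in 10 (33.3% against 12.2%) and CTGGGAA in 6 (20.0% against 12.7%). TGTTTAC stood in 2 of the 30, F11 and Klkb1, on the strand opposite to the gene, with its first base at -25 and at -21 from the start site, against 4.05% of all genes. The TATA box letters TATAAA stood in 3 of the 30 (against 15.7%) and the HNF4 letters CAAAGTCCA in 0 (against 0.555%). The looser HNF4 letters CAAAGTNCA stood in 2, F9 and Serpind1 (6.67% against 1.64%). These motifs were picked from 12 searched, after the windows had been seen, and a match of letters is a description and not a binding site.

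The lectin pathway had the highest median of the 9 cascades, a log2 fold change of 0.56 over 4 genes. Mbl2, a mannose-binding lectin that recognises microbial sugars, was at 108, 143 and 61.8 TPM with vehicle and at 231, 155 and 178 TPM with lycorine. All lycorine values lay above all vehicle values, with vehicle 3 far below the rest. The log2 fold change was 0.90 (SE 0.38), with a 95% interval of 0.03 to 1.78 and an unadjusted limma p of 0.0451, and it was 0.57 without vehicle 3. Mbl1, the other lectin of this kind, was at 166, 193 and 92.3 TPM with vehicle and at 226, 246 and 179 TPM with lycorine, and its groups overlapped through vehicle 2 and lycorine 3.

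The lectins act through associated serine proteases, and these differed in direction. Masp2, the protease that cuts C4 and C2, was at 150.2, 153 and 101 TPM with vehicle and at 204, 195 and 180.3 TPM with lycorine. The lycorine libraries were higher and closer together, and the log2 fold change was 0.54 (SE 0.29). It was 0.34 without vehicle 3 and 0.05 to 0.27 under the other 4 scalings. Masp1, the protease that activates Masp2, was at 16.9, 14.4 and 21.2 TPM with vehicle and at 14.3, 12.1 and 13.2 TPM with lycorine, and every lycorine value lay below every vehicle value. The margin was small, 14.3 TPM in lycorine 1 against 14.4 TPM in vehicle 2, and the log2 fold change of -0.37 (SE 0.28) became -0.23 without vehicle 3. Under the other 4 scalings it was -0.83 to -0.60, with the groups apart in each. Within each library the ratio of Masp1 to Masp2 was 0.113, 0.0939 and 0.211 with vehicle and 0.0702, 0.0621 and 0.0730 in lycorine. A single scaling factor per library leaves this ratio as it is, though quantile normalization does not, and its groups did not overlap. Since Masp1 was separated downward and Masp2 upward, the ratio had to separate, so it adds no support. It was formed after the values had been seen and was not tested.

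In the convertases, the enzymes that split C3, C4b was lower in lycorine while C3, C2 and Cfb were not. C4b, which supplies the subunit of the classical and lectin convertase that binds the target surface (ENSMUSG00000073418, chromosome 17 from 34728380 to 34743882), was at 1398, 900.2 and 1323 TPM with vehicle and at 588, 846 and 886 TPM with lycorine. Lycorine 1 was the lowest library, and lycorine 3 at 886 TPM came close to vehicle 2 at 900.2 TPM. The group means were 1207 ± 269 TPM with vehicle and 773 ± 162 TPM with lycorine (SD over 3 libraries), with a log2 fold change of -0.64 (SE 0.31), an interval of -1.35 to 0.08 and a limma adjusted p of 0.832. It was -0.56 without vehicle 3, and from -1.13 to -0.80 under the other 4 scalings, each of which also kept the groups apart.

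C3, the protein on which all complement routes converge, was at 1312, 896 and 898 TPM with vehicle and at 1546, 1371 and 1216 TPM with lycorine, a log2 fold change of 0.43 (SE 0.28). The groups overlapped through vehicle 1. The ratio of C4b to C3 within a library was 1.07, 1.01 and 1.47 with vehicle and 0.380, 0.617 and 0.729 in lycorine, so the groups did not overlap in this ratio either, which was also chosen after its values were seen. C4b was already separated by itself, so this ratio is not separate support. C2, the serine protease that joins C4b, had a log2 fold change of 0.38, and Cfb, its counterpart in the alternative convertase, 0.18, both with overlapping groups. C4b, Cfb and C2 lie in the complement cluster of chromosome 17, with Cfb and C2 85 bases apart.

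C4b has a close copy in mice, C4a, with which it can share reads, and this limits its value. C4a was at 42.3, 71.7 and 418 TPM with vehicle and at 33.5, 95 and 148 TPM with lycorine, highest in vehicle 3. C4b and C4a together were at 1441, 972 and 1742 TPM with vehicle and 621, 941 and 1035 TPM in lycorine, and the groups overlapped, because lycorine 3 lay above vehicle 2. Kupffer cell markers, genes of liver macrophages, were lower in lycorine in 8 of 8 tested cases, with Clec4f at 64.8, 57.1 and 99.5 TPM with vehicle and at 14.6, 18.7 and 52.8 TPM with lycorine. The 9 listed markers summed to 302, 151 and 241 TPM with vehicle and 200.3, 94.1 and 105 TPM in lycorine, with none at 0 in any library. Their part in the C4b values was not tested.

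**Figure D3:**
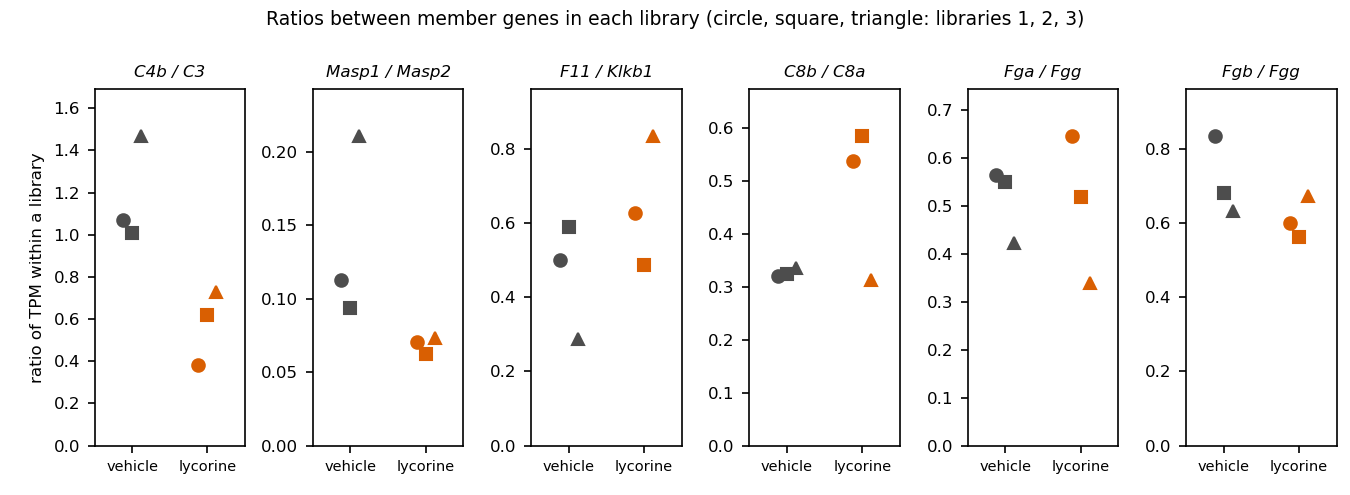
Ratios of TPM between 2 member genes within each library, which a single scaling factor per library leaves as they are, by group, with 1 marker shape per library number. C4b to C3 and Masp1 to Masp2 are lower in each lycorine library than in any vehicle library, while the other 4 ratios overlap between groups. For Masp1 to Masp2 this follows from the separation of both genes in opposite directions.

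The terminal components build the membrane pore, and their median log2 fold change was 0.12 over 6 genes. C8b, the beta chain of C8, was at 96.6, 121 and 103 TPM with vehicle and at 146, 219.6 and 142 TPM with lycorine. Lycorine 2 was far above the others, and the log2 fold change was 0.63 (SE 0.30). Its neighbour C8a, which encodes the alpha chain 11130 bases away on chromosome 4, was at 302, 375 and 306 TPM with vehicle and at 271, 375 and 453 TPM with lycorine, with overlapping groups. The C8b to C8a ratio in the vehicle libraries was 0.320, 0.324 and 0.336, and in the lycorine libraries 0.538, 0.586 and 0.313. Lycorine 3 thus lay just below the vehicle range and the other lycorine libraries well above it.

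C6, the first component to bind after C5, was at 161, 191 and 123 TPM with vehicle and at 219.7, 219 and 246 TPM with lycorine. The lycorine libraries were close together and above all vehicle libraries, with a log2 fold change of 0.54 (SE 0.28), and of 0.38 without vehicle 3. C9, which polymerises to form the pore wall, was at 800.4, 826 and 439 TPM with vehicle and at 544, 731 and 607 TPM with lycorine, a log2 fold change of -0.09 (SE 0.33). Without the low vehicle 3 it was -0.38. C8g, the gamma chain of C8, had a log2 fold change of 0.11. Hc, the gene of C5, had the largest standard error of the terminal components on the log2 scale, at 57.5, 26.8 and 109.6 TPM with vehicle and at 24.7, 41.1 and 83.0 TPM with lycorine, and vehicle 3 and lycorine 3 were the highest of their groups.

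The complement inhibitors had log2 fold changes above 0 in 3 of 3 genes, all with overlapping groups. C4bp, which helps to inactivate C4b, was at 63.9, 84.1 and 45.4 TPM with vehicle and at 143, 97.2 and 67.5 TPM with lycorine, a log2 fold change of 0.64 (SE 0.38). Cfi, the protease that cuts C3b and C4b, was at 74.4, 107 and 45.8 TPM with vehicle and at 126, 99.1 and 77.8 TPM with lycorine, and its log2 fold change was 0.47 (SE 0.38). Serping1, the inhibitor of C1 and of the contact proteases, was at 354.5, 294 and 166 TPM with vehicle and at 457, 276 and 230.3 TPM with lycorine. Lycorine 1 was the highest library in each of the 3, and vehicle 3 the lowest. Without vehicle 3 the log2 fold changes were 0.41, 0.15 and -0.07.

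In the contact system, which starts clotting on charged surfaces and releases bradykinin, F11 had the largest log2 fold change of the 39 genes. F11, the gene of factor XI (ENSMUSG00000031645, chromosome 8 from 45241174 to 45262031 on GRCm38), was at 19.3, 21.2 and 12.7 TPM with vehicle and at 30.5, 31.8 and 52.5 TPM with lycorine. All lycorine libraries lay above all vehicle libraries, with lycorine 3 the highest and vehicle 3 the lowest. The group means were 17.7 ± 4.44 TPM with vehicle and 38.3 ± 12.3 TPM with lycorine (SD over 3 libraries), and the log2 fold change was 1.05 (SE 0.34) with an interval of 0.25 to 1.86. Its unadjusted limma p was 0.017 and its adjusted p 0.832, so it did not pass. The log2 fold change was 0.85 without vehicle 3 and 0.59 to 0.86 under the other 4 scalings. The groups stayed apart under 2 of those, protein-coding genes alone and scaling to other secreted proteins, and overlapped under the remaining pair.

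Klkb1, the gene of plasma kallikrein, is the neighbour of F11 on chromosome 8, 4657 bases away and on the same strand. The pair are close relatives in the serine protease family, and their promoter windows above share the TGTTTAC match. Klkb1 was at 38.5, 35.9 and 44.4 TPM with vehicle and at 48.6, 65.4 and 62.8 TPM with lycorine, a log2 fold change of 0.56 (SE 0.27), and of 0.64 without vehicle 3. Under the other 4 scalings it was 0.07 to 0.30, and the groups overlapped in each. Here vehicle 3 was the highest vehicle library, unlike in F11, and the ratio of F11 to Klkb1 overlapped between groups.

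The remaining contact genes had overlapping groups on the deposited scale. Kng1, a kininogen from which bradykinin is released, was at 1320.4, 1179 and 818 TPM with vehicle and at 1006, 1206 and 999 TPM with lycorine, a log2 fold change of -0.02 (SE 0.28) with an interval of -0.69 to 0.64. Kng2, its neighbour and near copy, had 0.13, and reads can be shared between the pair. Kng2 made up 16.7% to 31.4% of the sum of both, with the highest share in vehicle 3. F12, the gene of factor XII, was at 482, 443 and 264 TPM with vehicle and at 458, 461 and 405 TPM with lycorine, and its log2 fold change of 0.20 was -0.07 without vehicle 3. Relative to other secreted proteins Kng1, Kng2 and F12 were at -0.51, -0.36 and -0.29, and every lycorine value lay below every vehicle value in Kng1 and F12.

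Among prothrombin and the factors that activate it, F10 had the smallest standard error on the log2 scale. F10, the gene of factor X, whose active form cuts prothrombin, was at 251, 245 and 227 TPM with vehicle and at 302, 321 and 316 TPM with lycorine. The group means were 241 ± 12.8 TPM with vehicle and 313 ± 9.91 TPM with lycorine (SD over 3 libraries). The groups lay further apart than the range within either. The log2 fold change was 0.38 (SE 0.24) and 0.33 without vehicle 3, but 0.09 with median-of-ratios scaling, where the groups overlapped, and -0.11 relative to other secreted proteins. F2, the gene of prothrombin, was at 344, 410.0 and 301 TPM with vehicle and at 528, 458 and 348 TPM with lycorine, a log2 fold change of 0.33 (SE 0.29).

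The other factors of this branch had overlapping groups on the deposited scale. F7, which starts clotting with tissue factor, and F9, which activates factor X, both had a log2 fold change of 0.37. Without vehicle 3 they were 0.69 and -0.04, in opposite directions, since vehicle 3 was the highest vehicle library for F7 and the lowest for F9. F5, the cofactor of factor X, had -0.08 on the deposited scale and -0.55 to -0.31 under the other 4 scalings. In each of those 4 every lycorine value of F5 lay below every vehicle value. F7, F10 and Proz lie in a row on chromosome 8, 1498 and 4237 bases apart, with log2 fold changes of 0.37, 0.38 and 0.53.

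The fibrinogen chains followed the library more than the group. Fgg, the gamma chain, was at 469, 607 and 239.8 TPM with vehicle and at 629, 566 and 319 TPM with lycorine. Fga, the alpha chain, was at 264, 334 and 101 TPM with vehicle and at 406, 294 and 108 TPM with lycorine, and Fgb, the beta chain, at 392, 413 and 152 TPM with vehicle and at 377, 319 and 215 TPM with lycorine. Vehicle 3 was the lowest library and lycorine 3 the next lowest for all 3 chains, and the groups overlapped in each. The 3 chains together were at 1125, 1353 and 493 TPM with vehicle and 1413, 1179 and 642 TPM in lycorine. The log2 fold changes of Fgg, Fga and Fgb were 0.24, 0.18 and 0.02 over all libraries but -0.14, -0.34 and -0.44 once vehicle 3 was left out. The interval of Fga, -1.27 to 1.62, was the widest of the 39 genes.

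The chain ratios within a library also varied, with Fga at 0.563, 0.550 and 0.422 of Fgg with vehicle and 0.646, 0.519 and 0.338 in lycorine. The lowest ratio in each group belonged to its library 3. F13b, the carrier subunit of the fibrin-linking factor XIII, was the gene of the set with the lowest level, at 7.57, 6.83 and 8.09 TPM with vehicle and at 12.1, 9.01 and 10.4 TPM with lycorine. All lycorine values lay above all vehicle values, a log2 fold change of 0.43 (SE 0.27), which at this level the pseudocount of 1 makes smaller than the change in TPM. It was 0.48 without vehicle 3.

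Of the anticoagulants, Serpinc1 was the most abundant. Serpinc1, antithrombin, was at 1572, 1539.8 and 816 TPM with vehicle and at 2165, 1767 and 1539 TPM with lycorine. Vehicle 3 was far below the others and lycorine 3 lay just below vehicle 2, so the groups overlapped, and the log2 fold change of 0.52 (SE 0.34) was 0.21 without vehicle 3. Proz, protein Z, a cofactor for the inhibition of factor X, was at 126, 86.8 and 113 TPM with vehicle and at 122, 171 and 180.1 TPM with lycorine, with an overlap through lycorine 1 and a log2 fold change of 0.53 (SE 0.30). Serpind1, heparin cofactor II, had 0.37, and Proc, protein C, 0.08 with an interval of -0.50 to 0.67. Pros1, the cofactor of protein C, was at 11.2, 8.90 and 31.6 TPM with vehicle and at 9.94, 9.83 and 11.4 TPM with lycorine, and its -0.48 became 0.05 without vehicle 3, which alone was high.

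In fibrinolysis the inhibitor of plasmin was separated and plasminogen was not. Serpinf2, alpha-2-antiplasmin, was at 231, 181 and 141 TPM with vehicle and at 269, 257 and 240.1 TPM with lycorine. Every lycorine library lay above vehicle 1, the highest of its group, and the log2 fold change was 0.50 (SE 0.29), or 0.32 without vehicle 3. Plg, plasminogen, was at 303, 347 and 157 TPM with vehicle and at 378, 261 and 230.1 TPM with lycorine, a log2 fold change of 0.15 (SE 0.39), and of -0.20 without vehicle 3. Cpb2, a carboxypeptidase that protects fibrin from plasmin, was at 116, 127 and 85.0 TPM with vehicle and at 146, 142 and 111 TPM with lycorine, a log2 fold change of 0.29 (SE 0.29).

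The choice of scaling moved the whole set. The median log2 fold change of the 39 genes was 0.33 in deposited TPM, 0.04 with median-of-ratios scaling, 0.02 with quantile normalization and 0.06 over protein-coding genes alone. Relative to the 20 other secreted hepatocyte proteins it was -0.16. The medians of all rows in those fits were 0.22, 0.00, 0.07, 0.03 and -0.17, so the set lay from 0.05 below to 0.11 above them. Without vehicle 3 the set's median was 0.15, against 0.19 for all rows. The sign held under all 5 of these scalings in 18 genes, above 0 in 11 and below 0 in 7, and the 7 were Masp1, C4b, Hc, C9, Kng1, F5 and Pros1. Of the 11, Serpinf2, Serpinc1, Masp2, Proz, C6, Klkb1 and Mbl1 were at only 0.01 to 0.09 relative to other secreted proteins, while C8b, C4bp, Mbl2 and F11 were at 0.15, 0.16, 0.42 and 0.59.

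**Figure D4:**
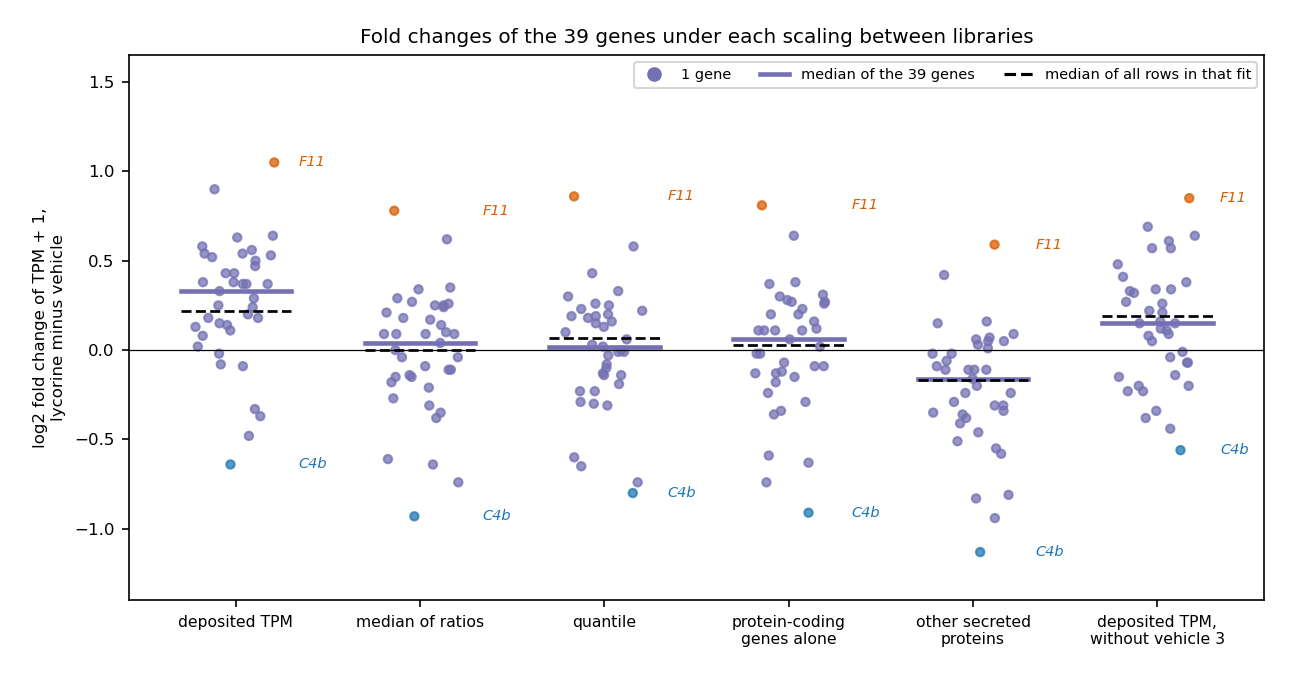
Log2 fold changes of the 39 genes (points) under the deposited scale, 4 other scalings between libraries and without vehicle 3, with the median of the set (solid line) and of all rows in that fit (dashed line). F11 stays above 0 and C4b below 0 in all 6 columns, while the set's median runs from 0.33 to -0.16.

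Other genes of both systems, and of the cells around hepatocytes, were counted on the deposited scale, on which the median of all rows was 0.22. Of 33 other complement genes 24 were tested and 0 passed in limma, with 12 higher and 12 lower and a median log2 fold change of 0.05. Every lycorine value lay below vehicle in 3 of the 24, against 1.01% of all rows, and these 3 are known mainly from macrophages and other leukocytes. Fcna, a ficolin of macrophages, was at 15.8, 14.3 and 16.4 TPM with vehicle and at 2.27, 3.69 and 5.14 TPM with lycorine. Vsig4, a complement receptor of Kupffer cells, was at 5.35, 7.44 and 5.37 TPM with vehicle and at 1.71, 2.17 and 1.87 TPM with lycorine. Cfp, properdin, which stabilises the alternative convertase, had a log2 fold change of -0.67. Cd59a, a membrane inhibitor of the pore, was at 17.1, 11.8 and 7.42 TPM with vehicle and at 20.2, 22.9 and 29.6 TPM with lycorine. All its lycorine values lay above vehicle, as did those of C1s1 and C1rl, whose products belong to or resemble the C1 proteases. Upward separation was thus seen in 3 of the 24, against 9.6% of all rows.

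Of 26 other clotting and fibrinolysis genes 16 were tested and 0 passed in limma, with 12 higher, 4 lower and a median of 0.24. Serpina10, the inhibitor that works with protein Z, was at 125, 97.3 and 77.5 TPM with vehicle and at 174, 169 and 143 TPM with lycorine, a log2 fold change of 0.71 (SE 0.29) with all lycorine values above vehicle. Of the 9 genes of the vitamin K cycle and of clotting factor export 8 were higher and 0 passed, with Vkorc1, the reductase that recycles vitamin K, at 209.7, 173 and 85.3 TPM with vehicle and at 218, 199 and 172 TPM with lycorine and overlapping groups. The 20 other secreted hepatocyte proteins had a median of 0.44, with 16 higher and 0 passed.

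Regulators of these genes were listed too. Of 13 tested hepatocyte transcription factors 0 passed in limma, 9 were higher and 4 lower. Upward separation was seen in 3 of the 13, Cebpa, Dbp and Nr1h4, against 9.6% of all rows. Nr1h4 was at 36.4, 34.8 and 34.8 TPM with vehicle and at 50.5, 48.7 and 57.0 TPM with lycorine, a log2 fold change of 0.55 (SE 0.25). Cebpa, the gene of C/EBP alpha, was at 55.4, 61.5 and 28.0 TPM with vehicle and at 108, 104 and 64.0 TPM with lycorine, a log2 fold change of 0.95 (SE 0.40) with all lycorine values above vehicle, and Dbp, a clock-driven factor of liver, was at 70.9, 140.4 and 76.0 TPM with vehicle and at 198, 268 and 279 TPM with lycorine. Hnf4a was at 57.9, 56.8 and 39.7 TPM with vehicle and at 63.1, 53.2 and 30.4 TPM with lycorine, with overlapping groups. Of 19 tested acute phase genes 7 were higher, 11 were lower, Jak1 was at 0.00 and 0 passed, and the median was -0.08. Il1r1, the receptor of interleukin 1, which is an inducer of C3 and Cfb, was at 16.3, 9.58 and 70.1 TPM with vehicle and at 5.29, 5.64 and 5.96 TPM with lycorine and separated downward, with vehicle 3 far above the rest. Orm2, an orosomucoid of the acute phase, had the largest difference upward in that list, a log2 fold change of 1.63 (SE 0.80), at 87.6, 34.2 and 69.1 TPM with vehicle and at 435, 49.8 and 294 TPM with lycorine. Its groups overlapped through lycorine 2, and it can share reads with its near copy Orm1.

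Markers of other liver cells were set beside these genes. The 7 tested markers of sinusoidal endothelial cells were all lower in lycorine, 1 of them with groups apart, and the 9 listed summed to 161, 47.9 and 129 TPM with vehicle against 92.6, 53.5 and 73.7 TPM with lycorine. Of the 8 tested Kupffer cell markers, 5 had every lycorine value below vehicle, and the median log2 fold change of the 8 was -1.09. Of all rows, 1.01% were separated downward. C1qa and Vsig4 are also among the other complement genes above. All 3 tested neutrophil markers were lower, 1 with groups apart, with a median of -1.47 at mean levels of 1.43 to 3.85 TPM. T and NK cell markers were lower in 5 of 6, with a median of -0.65. Bile duct markers were higher in 5 of 7, with a median of 0.25. Stellate cell and fibroblast markers had 3 higher and 3 lower. The 2 tested markers of B and plasma cells and the 2 of platelets had medians of 0.06 and 0.03. The 10 hepatocyte markers had 9 higher and a median of 0.22, equal to that of all rows. Their summed level, led by Alb and Apoa1, was 43456, 42620.1 and 15263 TPM with vehicle against 44730, 46977 and 31041 TPM with lycorine. In limma 0 markers of any of the 9 cell types passed. The part of cell composition in the values of the 39 genes was not tested.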

How the data were processed

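The authors deposited 1 table, labelled as FPKM, holding 6 libraries. Because every deposited column adds up to 1000000 apart from rounding, the values were taken as TPM; the planned test needed no change. Builds GRCm38 and mm10 are named per the submitters' processing notes, while the sources used here name no aligner, quantifier or annotation. Lycorine columns are marked Ly. Vehicle columns carry genotype and number only and were assigned because no other label was left. Symbols and coordinates came from GENCODE M21, which holds 52135 of 55416 Ensembl identifiers.

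Rows averaging 1 TPM or more were compared as log2(TPM + 1) with limma 3.58.1 (R 4.3.3, variance trend, two-sided, Benjamini-Hochberg, threshold 0.05). Fold changes are on that scale and understate changes of weakly expressed genes. The procedure was tested on simulated data. Members, cascades, lists and alternatives were chosen with earlier results of these data known. Values in every library are given for the 24 genes that are, in their cascade, highest in level or among the 2 smallest p, or whose groups do not overlap. Others given this way were chosen after their values were seen. Up to 4 genes with the smallest p were taken from each other list, and C4a, Clec4f, Alb, Hnf4a and Vkorc1 were named as context. There were 17 alternatives.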

Additional observations from a re-analysis of the deposited data

How the results depend on the processing

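Over the 17 alternatives 0 of the 39 genes passed, and 13 genes kept the sign of their log2 fold change in each, namely Mbl1, Mbl2, Masp1, Masp2, C4b, C6, C8b, C4bp, Klkb1, F11, Proz, Serpinc1 and Serpinf2, of which 7 were between 0.01 and 0.09 when scaled to other secreted proteins. Same-numbered libraries were not treated as pairs, since the labels do not state that the numbers pair libraries. Their deviations correlated across rows at 0.311, 0.049 and 0.291, against -0.344 to 0.214 between differently numbered libraries. With the replicate block 0 of all rows passed, the set's median was again 0.33, and 1033 rows had an unadjusted p under 0.05 against 476 without it. Over all rows, 1 passed with a pseudocount of 0.1 and 1 with array quality weights, and 0 to 2 when 1 library was left out. The cause of the shifts below was not tested, and depth is unknown. With median-of-ratios scaling, quantile normalization, protein-coding genes alone and scaling to other secreted proteins, the set's median was 0.04, 0.02, 0.06 and -0.16, and 21, 21, 21 and 11 genes were above 0. Genes with every lycorine value above vehicle numbered 0, 1, 3 and 1 there (3.31%, 4.02%, 5.01% and 1.39% of all rows), 16 without both vehicle 3 and lycorine 3 (25.5%), and 9 to 15 with 1 library left out (11.3% to 31.3%), where fewer values make separation easier. Genes with every value below numbered 3, 3, 3 and 6 under the 4 scalings (3.52%, 2.82%, 1.79% and 3.21% of all rows), 5 without both libraries 3 (3.40%), and 2 to 5 with 1 left out (1.46% to 7.58%), the 5 without vehicle 3 (1.96%).

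Signs reversed, none of them of a gene that passed. With median-of-ratios scaling the log2 fold changes were Cfb -0.11, C8a -0.15, C8g -0.18, Serping1 -0.04, F12 -0.09, Kng2 -0.15, Fga -0.11, Fgb -0.27, Fgg -0.04, Proc -0.21 and Plg -0.14. With quantile normalization they were C8a -0.14, C8g -0.19, Serping1 -0.01, F12 -0.10, Kng2 -0.14, Fga -0.08, Fgb -0.29, Fgg -0.01, Proc -0.23, Plg -0.13 and Cpb2 -0.03. With protein-coding genes alone they were Cfb -0.09, C8a -0.13, C8g -0.15, Serping1 -0.02, F12 -0.07, Kng2 -0.13, Fga -0.09, Fgb -0.24, Fgg -0.02, Proc -0.18 and Plg -0.12. Scaled to other secreted proteins they were C2 -0.09, C3 -0.06, Cfb -0.31, C8a -0.35, C8g -0.38, Cfi -0.02, Serping1 -0.24, F12 -0.29, Kng2 -0.36, F2 -0.16, F7, F9, F10 and Serpind1 -0.11 each, Fga -0.31, Fgb -0.46, Fgg -0.24, F13b -0.02, Proc -0.41, Plg -0.34 and Cpb2 -0.20. With array quality weights they were Cfb -0.07, Serping1 -0.01, Kng1 0.03, Fgb -0.15 and Plg -0.15. Without both libraries 3 they were C2 -0.02, Cfb -0.04, C8a and C8g -0.08 each, F12 -0.01, Fgb -0.21, Proc -0.01 and Plg -0.05.

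With 1 library left out in turn, the lowest and highest values were Cfb -0.15 and 0.36, Hc -0.84 and 0.16, C8a -0.03 and 0.34, C8g -0.05 and 0.31, C9 -0.38 and 0.07, Serping1 -0.07 and 0.47, F12 -0.07 and 0.37, Kng1 -0.23 and 0.12, Kng2 -0.06 and 0.31, F5 -0.20 and 0.02, and F9 -0.04 and 0.61. They were Fga -0.34 and 0.73, Fgb -0.44 and 0.27, Fgg -0.14 and 0.54, Proc -0.01 and 0.16, Pros1 -0.81 and 0.05, and Plg -0.20 and 0.37. Leaving out vehicle 3 reversed 11 genes, more than any other single library did.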
